A study of Homo sapiens with 2 samples.

Results

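Fibroblast growth factors (FGFs) are secreted proteins that bind receptor tyrosine kinases together with heparan sulfate, and the genes described here are 10 members of that system: the kinase receptors FGFR1, FGFR2, FGFR3 and FGFR4, the kinase-less receptor FGFRL1, the ligands FGF1, FGF2, FGF9 and FGF18, and the docking protein FRS2. They were taken by gene symbol from 26255 symbols measured by RNA-seq, and all 10 were found in each table. The cells were OVSAHO, an established human line of serous ovarian cancer, and there were 2 libraries, 1 per group. In 1 group, called knockdown cells below, SMARCA2 was raised and SMARCA4 was knocked down. The short name stands for both changes, which came together and cannot be told apart here. The 2 genes encode alternative ATPases of the SWI/SNF chromatin-remodelling complex. The genotype label calls SMARCA2 stable, and the series text gives its direction. Control cells were labelled wild type, and their name in the series text carries siNC where that of knockdown cells carries siA4. All cells had 25 µM carboplatin, a DNA-crosslinking platinum drug, in their medium for 2 days, so no untreated culture is compared here. How SMARCA2 was raised, and whether each culture came from 1 clone, is not stated in the sources used here.

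When an FGF and heparan sulfate bring receptors together, the receptor kinases phosphorylate each other and the docking protein FRS2. FRS2 then recruits GRB2, SOS proteins and the phosphatase PTPN11, which leads to RAS and ERK activity. ERK activity induces feedback inhibitors of the Sprouty family. FGF1 and FGF2 lack a classical signal peptide and leave cells by an unconventional route, while FGF9 and FGF18 are secreted ligands. FGFRL1 binds FGFs but has no kinase domain. In epithelial tissues, alternative splicing of the receptors decides which ligands they bind. The values here are per gene and do not separate such isoforms.

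Promoter sequences are shown for 4 members with a single start in the RefSeq-based table used (GRCh38.p14, another build than that of the expression files). FGF18 and FGF2 are ligands with higher values in knockdown cells, FRS2 had a lower value, and FGFRL1 was nearly level. Of these 4, only FGF18 passed the rule of size given below. Each run is the 250 bases before the start, 5′ to 3′ on the plus strand, which is the coding strand of all 4. Capitals mark the GC box GGGCGG or its reverse complement CCGCCC, a motif bound by SP family factors.
FGF18, chr5:171419397-171419646: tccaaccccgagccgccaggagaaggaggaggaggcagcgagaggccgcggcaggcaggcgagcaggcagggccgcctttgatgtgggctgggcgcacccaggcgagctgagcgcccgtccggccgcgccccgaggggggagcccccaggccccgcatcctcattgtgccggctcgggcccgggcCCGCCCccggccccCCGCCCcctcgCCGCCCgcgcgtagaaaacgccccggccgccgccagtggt
FGF2, chr4:122826581-122826830: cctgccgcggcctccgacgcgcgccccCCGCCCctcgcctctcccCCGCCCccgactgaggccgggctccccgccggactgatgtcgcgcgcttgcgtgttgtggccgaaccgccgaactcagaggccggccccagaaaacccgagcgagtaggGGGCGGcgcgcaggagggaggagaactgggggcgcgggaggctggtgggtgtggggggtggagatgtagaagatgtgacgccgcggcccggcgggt
FRS2, chr12:69470138-69470387: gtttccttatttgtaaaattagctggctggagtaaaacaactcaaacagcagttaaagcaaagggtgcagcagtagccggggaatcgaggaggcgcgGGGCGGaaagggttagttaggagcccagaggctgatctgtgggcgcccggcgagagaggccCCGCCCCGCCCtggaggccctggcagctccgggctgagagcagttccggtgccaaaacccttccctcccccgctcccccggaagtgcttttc
FGFRL1, chr4:1012214-1012463: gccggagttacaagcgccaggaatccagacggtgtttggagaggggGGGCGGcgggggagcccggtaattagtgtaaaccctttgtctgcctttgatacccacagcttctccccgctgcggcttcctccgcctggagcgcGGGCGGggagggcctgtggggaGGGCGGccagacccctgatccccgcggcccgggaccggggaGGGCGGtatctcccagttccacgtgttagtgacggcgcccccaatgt
All 4 windows held more CpG than the median window. FGF18 held 31 CpG and FGF2 33, FRS2 held 14 and FGFRL1 21, against a median of 11 over 35116 promoter windows of the same length. The FGF18 window held 3 GC boxes, which ended 34, 45 and 59 bases before the start. FGF2 held 3, FRS2 3 (2 of them overlapping) and FGFRL1 4. GC boxes were in 42.6% of all windows. The TEAD motif GGAATG (either strand), the AP-1 motif TGANTCA and the CRE motif TGACGTCA were in none of these 4, and in 11.9%, 6.57% and 1.65% of all windows. GC boxes were thus in the windows of the ligands, of FRS2 and of FGFRL1 alike, and a match is a run of letters, not a measured binding site. The table matched 8 of the 10 members, with 16 starts in all, and FGFR1 and FGF9 were the others. FGFR3 also has a single start, with 40 CpG and 8 GC boxes, and is not shown. Over the 16 member windows, GC boxes were in 10, the TEAD motif in 3, the AP-1 motif in 1 and the CRE motif in 0.

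Levels are given as FPKM, that is fragments per kilobase of transcript for every 1000000 mapped, which can be set side by side between genes. The 2 libraries rested on an estimated 8870000 fragments in knockdown cells and 9050000 in control cells, with 15925 and 15517 genes above 0. Intervals below are 95% exact intervals on estimated fragments and cover counting error only. PCR copies are not independent molecules, so the intervals can be too narrow even for that error. With 1 library per group there is no between-culture error and no p-value, and every difference below is between these 2 libraries. SMARCA2 was at 2.60 FPKM in knockdown cells, against 0.205 in control cells, and SMARCA4 was at 4.49 FPKM, against 27.9, both in the direction the series text states. The line's epithelial and Müllerian markers were present: of 10, 9 reached 1 FPKM, WT1 was higher and KRT7 lower in knockdown cells, and their sum was 1109 FPKM in knockdown cells and 1562 FPKM in control cells. PAX8 was at 42.1 FPKM in knockdown cells and 21.9 FPKM in control cells, while MUC16 was at 0 in knockdown cells and 0.061 FPKM in control cells. Of 8 fibroblast markers, 5 were at 0 in both libraries, COL1A2 and COL3A1 among them, and their summed level was 0.905 FPKM in knockdown cells and 3.32 in control cells, mostly THY1. Of 5 leukocyte markers, PTPRC and CD3E were at 0 in both, and the sum was 12.3 FPKM in knockdown cells and 38.5 FPKM in control cells, nearly all from CD68, a lysosomal protein also made by other cells. The 4 endothelial markers summed to 0.430 FPKM in knockdown cells and 0.367 in control cells. The part of these differences in the results below was not tested. In such bulk RNA, fewer cells that express a gene and less RNA per cell cannot be told apart.

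To be called higher, a gene had to reach 1 FPKM in at least 1 library and to have a log2 ratio of 1 or more, knockdown over control, after 1 FPKM was added to each value. A log2 ratio of -1 or less made it lower. Of the 10 members, 7 reached 1 FPKM, FGF2 only in knockdown cells. FGFR1 and FGF18 were called higher, no member was called lower, 5 fell short of the threshold on the log2(FPKM + 1) scale, and FGFR3, FGF9 and FGF1 stayed under 1 FPKM. Over all 11785 genes at that level, 7.85% were called higher and 7.61% lower. Among the 7488 genes with 1 to 20 FPKM in their higher library, the range that holds these 7 members, the shares were 10.1% and 6.45%. A count of 2 higher members among 10 is too small to set against those shares. The 7 members at 1 FPKM had a median log2 ratio of -0.017, with 3 of 7 above 0, against -0.059 over all 11785 genes at that level. With the 3 members under 1 FPKM included, the median was 0.26 over 10 members, against 0 over all 26255 symbols, most of which lie under 1 FPKM. The all-gene split of 925 higher and 897 lower genes depended on scaling, with 1257 and 685 when both libraries were brought to the same FPKM sum and 1158 and 684 when ratios were centred on their median, and the member calls were FGFR1 and FGF18 under both. The FPKM sums themselves differed by -0.14 on the log2 scale, knockdown over control.

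Among the receptors, FGFR1 alone passed the rule. FGFR1, a receptor common in mesenchymal cells, was at 13.3 FPKM in knockdown cells and 5.08 FPKM in control cells, 2.63-fold higher (interval 2.24 to 3.10). The log2 ratio was 1.24, the 514th highest of 11785 genes. About 541 fragments in knockdown cells and 210 in control cells lay behind it, so its counting intervals were far apart. FGFR1 is a gene of long transcripts, with a median of 4766 bases over 8 RefSeq-matched transcripts, and genes of 4000 bases or more had a median log2 ratio of 0.22, with 12.1% called higher. With trends on length, GC content and level removed, its log2 ratio was 1.14, and with a pseudocount of 5 FPKM it was 0.86, short of the threshold. LETM2, a mitochondrial protein gene on the opposite strand next to FGFR1, was higher as well, at 5.66 FPKM in knockdown cells and 2.25 FPKM in control cells. The library kit does not mark strand, but the RefSeq-matched transcripts of FGFR1 and LETM2 share 0 exon bases in GENCODE 29, and the full set of transcripts shares 138 of 13842.

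FGFR2, FGFR4 and FGFRL1 were nearly level between the libraries. FGFR2, whose epithelial isoform is a receptor for FGF7 and FGF10, was at 4.53 FPKM in knockdown cells and 4.595 FPKM in control cells, with a fold of 0.985 (0.776 to 1.27). FGFR4, a receptor for the endocrine ligand FGF19, was at 5.29 FPKM in knockdown cells and 6.32 FPKM in control cells, a fold of 0.837 (0.652 to 1.08). FGFRL1 was at 4.22 FPKM in knockdown cells and 4.59 FPKM in control cells, a fold of 0.920 (0.691 to 1.23). All 3 intervals take in a fold of 1 and end below the lower bound for FGFR1. FGFR3 was at 0.664 FPKM in knockdown cells and 0.206 FPKM in control cells, 3.22-fold higher (1.46 to 9.63), on about 24 fragments in knockdown cells and 7 in control cells. It stayed under 1 FPKM in both libraries and so got no call.

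**Figure D1:**
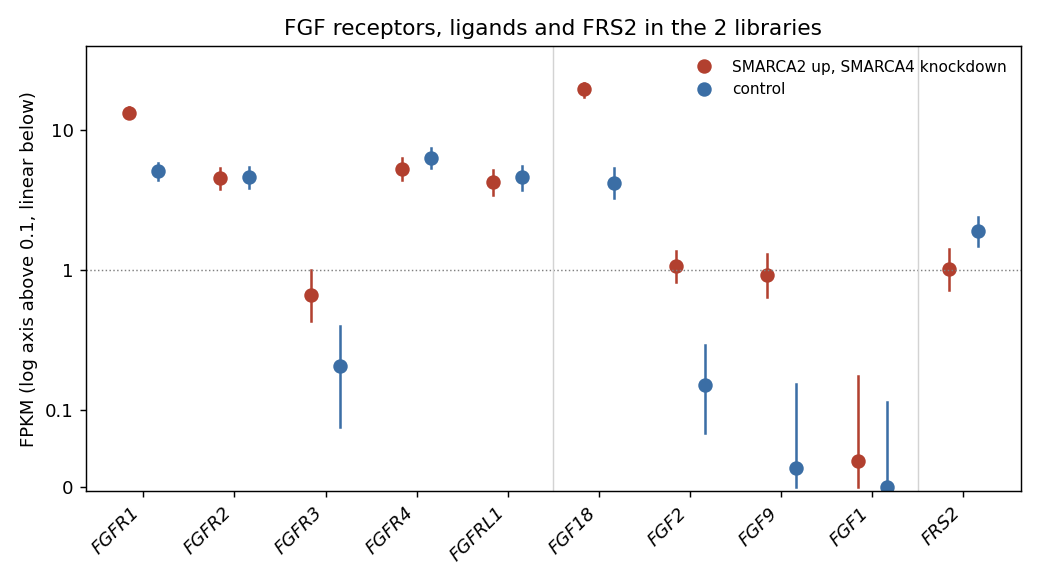
FPKM of the 10 members in the library of knockdown cells (red, left of each pair) and the library of control cells (blue, right), with 95% counting intervals, on an axis that is logarithmic above 0.1 FPKM and linear below; the dotted line is 1 FPKM and 1 library stands behind each point. FGF18 and FGFR1 stand at 19.5 and 13.3 FPKM in knockdown cells, clear of their control values of 4.22 and 5.08 FPKM, while the points of FGFR2, FGFR4 and FGFRL1 lie nearly level.

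Summed over FGFR1 to FGFR4, the kinase receptors came to 23.8 FPKM in knockdown cells and 16.2 FPKM in control cells. FGFR1 made up 56.0% of that sum in knockdown cells and 31.4% in control cells. FGFR4 made up 22.2% in knockdown cells and 39.0% in control cells, FGFR2 19.0% in knockdown cells and 28.4% in control cells, and FGFR3 2.79% in knockdown cells and 1.27% in control cells. By FPKM the most abundant receptor was FGFR1 in knockdown cells and FGFR4 in control cells. In control cells the counting intervals of FGFR4 and FGFR1 overlapped (5.34 to 7.44 and 4.42 to 5.82 FPKM), as did those of FGFR1, FGFR2, FGFRL1 and FGF18 between neighbours. In knockdown cells the interval of FGFR1 (12.3 to 14.5 FPKM) lay above that of FGFR4 (4.39 to 6.34 FPKM), and those of FGFR4, FGFR2 and FGFRL1 overlapped between neighbours.

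**Figure D2:**
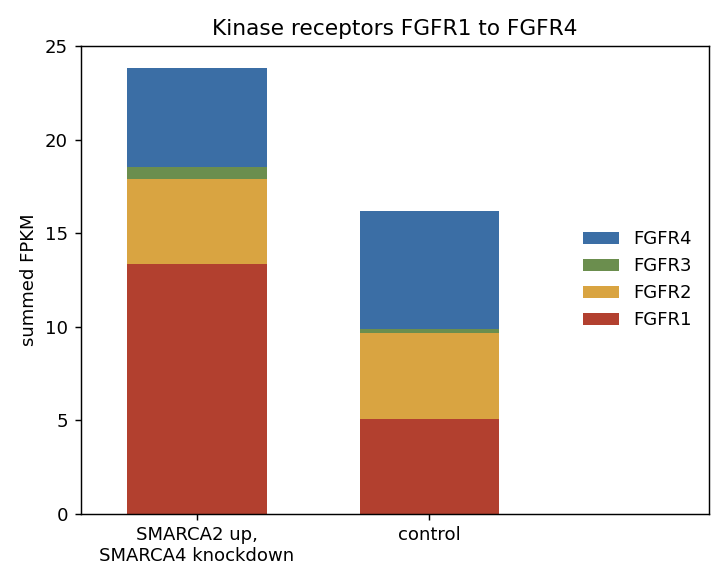
Summed FPKM of the kinase receptors in knockdown cells (left) and control cells (right), stacked by receptor, with 1 library per bar. The sum is 23.8 FPKM in knockdown cells and 16.2 FPKM in control cells, and the FGFR1 segment makes up 56.0% of it in knockdown cells and 31.4% in control cells.

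The ligand with the most RNA in both libraries was FGF18, a ligand of the FGF8 subfamily with roles in bone and lung development. FGF18 was at 19.5 FPKM in knockdown cells and 4.22 FPKM in control cells, 4.63-fold higher (3.56 to 6.13). It rested on about 309 fragments in knockdown cells and 68 in control cells, and its log2 ratio of 1.98 was the 77th highest of 11785 genes. Within knockdown cells its level passed that of 76.3% of the genes above 0, and within control cells that of 51.6%. Its single transcript of 1986 bases falls in the class of 1000 to 2000 bases, where the median log2 ratio was -0.17 and 5.33% of genes were called higher. Once transcript length, GC and level were adjusted for, its log2 ratio was 2.099. FGF18 made up 90.7% of the summed FPKM of the 4 ligands in knockdown cells and 96.0% in control cells, and that sum was 21.5 FPKM in knockdown cells and 4.39 FPKM in control cells.

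The other ligands were scarce. FGF2, a broadly acting ligand that binds several receptors, was at 1.06 FPKM in knockdown cells and 0.151 FPKM in control cells, 7.04-fold higher (3.48 to 16.1) on about 62 fragments in knockdown cells and 9 in control cells. With 1 FPKM added to each value its log2 ratio was 0.84, under the threshold. With a pseudocount of 0.1 FPKM it was 2.21, past the threshold, and with the trends removed it was 0.52, the median transcript being 6714 bases long. FGF2 also overlaps NUDT6, a Nudix hydrolase gene on the opposite strand, over 637 of its 6775 exon bases in GENCODE 29. NUDT6 was at 12.0 FPKM in knockdown cells and 7.04 FPKM in control cells, so fragments from the shared stretch cannot be told apart and the level of FGF2 is uncertain. FGF9, a ligand with a preference for FGFR3, was at 0.912 FPKM in knockdown cells and 0.0255 FPKM in control cells. That is a ratio of 35.8 with an interval of 5.64 to 1372, because the control value rested on about 1 fragment, against about 33 in knockdown cells. FGF1 was at 0.0341 FPKM in knockdown cells, about 1 fragment, and at 0 in control cells, where 3 fragments would have given 0.092 FPKM, so no difference was detectable at this depth. FGF18, FGF2 and FGF9 thus had higher values in knockdown cells, of which only that of FGF18 passed the rule, and FGF1 showed no direction.

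FRS2, which links activated FGF receptors to RAS signalling, had the lowest ratio of the members. It was at 1.02 FPKM in knockdown cells and 1.89 FPKM in control cells, 1.86-fold lower (1.23 to 2.84), on about 37 fragments in knockdown cells and 70 in control cells. The log2 ratio with 1 FPKM added was -0.52, short of the threshold. The estimate of fragments is rough, since its 2 matched transcripts have 1952 and 6600 bases, which put knockdown cells anywhere between 15.8 and 57.7 fragments. FRS3, its close relative, was at 1.48 FPKM in knockdown cells and 3.85 FPKM in control cells, 2.60-fold lower (1.63 to 4.25). Its log2 ratio with 1 FPKM added was -0.97, short of the threshold.

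**Figure D3:**
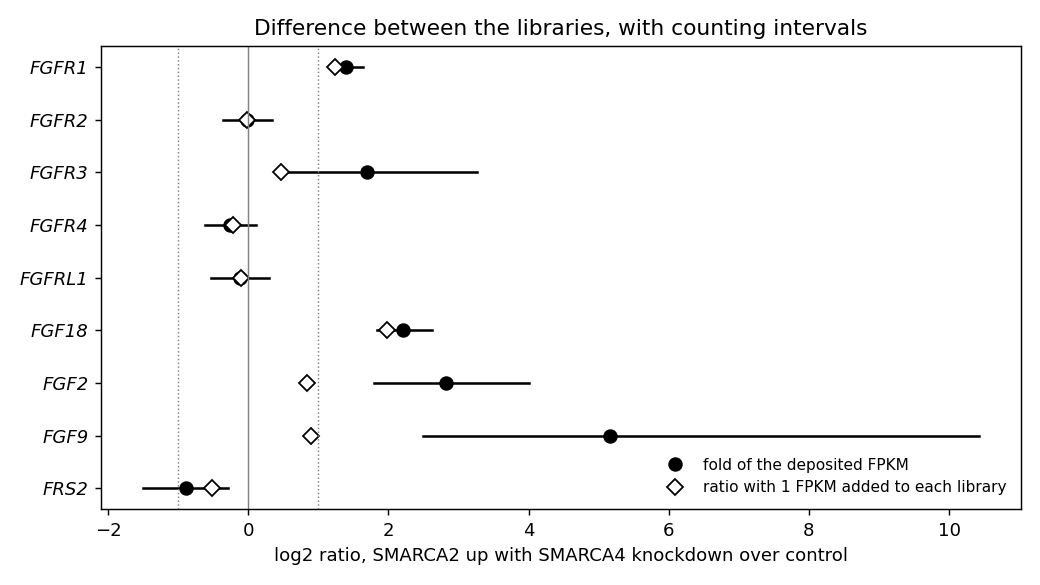
Log2 ratio, knockdown over control, of 9 members as the fold of the deposited FPKM (filled circles, with 95% counting intervals) and with 1 FPKM added to each library (open diamonds); dotted lines mark 2-fold, and FGF1, at 0 in control cells, is left out. FGFR1 and FGF18 pass 2-fold on both scales, whereas FGFR3, FGF2 and FGF9 do so only without the added 1 FPKM.

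Genes around the members were taken from 10 lists of the FGF pathway with 87 genes in all. Of these, 44 reached 1 FPKM, 11 were called higher and 2 lower. That is 12.6% of the 87 called higher, against 3.52% of all 26255 symbols, most of which lie under 1 FPKM. Among genes at 1 FPKM it is 11 of 44, beside the 7.85% of all and the 12.1% of genes of 4000 bases or more. The lists were chosen with earlier results of these data known, so these shares describe the lists and test nothing. The 2 lower genes are 2.30% of the 87, against 3.42% of all symbols, and 4.55% of the 44, beside the 7.61% of all. Of the 11 higher genes, SOS1, EXTL3 and SPRY4 fell short of the threshold once transcript length, GC and level were adjusted for, at log2 ratios of 0.92, 0.85 and 0.98.

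The heparan sulfate proteoglycans, which hold FGFs at the cell surface, had 3 of 10 genes higher and none lower, with 6 at 1 FPKM. The median log2 ratio was 0.38 over the list, against 0 over all symbols. It was 0.95 over those 6, against -0.059 over all genes at 1 FPKM. For this list and those below, 3.52% of all symbols and 7.85% of genes at 1 FPKM were called higher. The shares called lower were 3.42% and 7.61%. Lists this short are too small to set against those shares. The glypican GPC4 was at 13.4 FPKM in knockdown cells and 3.02 FPKM in control cells, 4.45-fold higher (3.68 to 5.43). The syndecan SDC3 was 2.63-fold higher (24.2 FPKM in knockdown cells, 9.18 FPKM in control cells) and SDC2 2.29-fold higher (36.2 FPKM in knockdown cells, 15.8 FPKM in control cells). GPC1 was level, at 8.19 FPKM in knockdown cells and 8.62 FPKM in control cells, and SDC4, the most abundant of the list, was at 139 FPKM in knockdown cells and 81.9 FPKM in control cells, within 2-fold on the scale of the rule.

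The enzymes that build and edit heparan sulfate had 3 of 12 genes higher and none lower, with 8 at 1 FPKM. The median was 0.34 over the list and 0.38 over those 8. HS6ST1, which adds 6-O-sulfate groups that FGF receptor complexes use, was 4.63-fold higher (3.84 to 5.66), at 17.99 FPKM in knockdown cells and 3.89 FPKM in control cells. EXT1, a polymerase of the chain, was 5.14-fold higher (4.12 to 6.41), at 6.995 FPKM in knockdown cells and 1.36 FPKM in control cells. EXTL3, which starts the chain, was 2.38-fold higher, at 10.95 FPKM in knockdown cells and 4.602 FPKM in control cells. EXT2, the partner of EXT1, was at 19.8 FPKM in knockdown cells and 16.9 FPKM in control cells, a fold of 1.18 (1.04 to 1.34) whose interval lay below that of EXT1. NDST2, a sulfotransferase, was at 6.72 FPKM in knockdown cells and 12.4 FPKM in control cells, within 2-fold on the scale of the rule.

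Among 13 adaptors and effectors next to the receptors, 11 reached 1 FPKM, 2 were higher and 1 was lower. The median was 0.18 over the list and over those 11 alike. PTPN11, the phosphatase SHP2 that FRS2 recruits, was 2.64-fold higher (2.25 to 3.10), at 16.8 FPKM in knockdown cells and 6.38 FPKM in control cells. SOS1, which loads RAS with GTP, was at 1.90 FPKM in knockdown cells and 0.163 FPKM in control cells, 11.7-fold higher (6.47 to 23.1), on about 12 fragments in control cells. The adaptor SHC1 was 2.40-fold lower (2.16 to 2.66), at 19.0 FPKM in knockdown cells and 45.5 FPKM in control cells. The adaptor GRB2 was at 53.8 FPKM in knockdown cells and 45.8 FPKM in control cells and the phospholipase PLCG1 at 16.6 FPKM in knockdown cells and 17.8 FPKM in control cells, both nearly level.

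Of 8 membrane or matrix proteins that bind FGF receptors, NCAM1, a neural cell adhesion molecule, was higher and FLRT3 lower. The median log2 ratio was -0.21 over the 5 genes at 1 FPKM and 0.14 over all 8. NCAM1 was at 11.0 FPKM in knockdown cells and 2.095 FPKM in control cells, 5.26-fold higher (3.91 to 7.20). FLRT3 was at 1.12 FPKM in knockdown cells and 3.29 FPKM in control cells, 2.94-fold lower (2.06 to 4.32), just past the threshold with a log2 ratio of -1.02, and it fell short of it with equal FPKM sums or after centring. Of 13 ERK feedback and readout genes, 9 reached 1 FPKM and 6 of those had a log2 ratio above 0. SPRY1 (13.3 FPKM in knockdown cells, 3.07 FPKM in control cells) and SPRY4 (4.94 FPKM in knockdown cells, 1.79 FPKM in control cells) were higher and none was lower. The median was 0.12 over the list and 0.20 over those 9. SPRY2, DUSP5 and DUSP6 were within 2-fold, with folds of 0.937, 0.994 and 1.21. The ETS factors ETV4 and ETV5 were at 22.1 and 29.4 FPKM in knockdown cells and 39.6 and 25.6 FPKM in control cells. ETV4 was thus 1.79-fold lower (1.56 to 2.06), within 2-fold on the scale of the rule, and ETV5 had a fold of 1.15 (1.05 to 1.26).

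The remaining lists had no gene past the rule. Of 14 further secreted FGFs, 10 were at 0 in both libraries and none reached 1 FPKM, with a median of 0. FGF16, of the FGF9 subfamily, was listed at 0 in knockdown cells and at 0.737 FPKM in control cells, about 10 fragments. FGF8, of the FGF18 subfamily, was at 0.172 FPKM in knockdown cells, about 1 fragment, and 0.338 FPKM in control cells, about 2. The 4 intracellular FGF homologous factors had a median of -0.12, with FGF11 at 0.573 FPKM in knockdown cells and 0.153 FPKM in control cells and FGF13 listed at 0 in knockdown cells and at 0.381 FPKM in control cells. The Klotho co-receptors KL and KLB, needed by endocrine FGFs, were at 0 in both libraries. The carrier FGFBP1 was at 0.390 FPKM in knockdown cells and listed at 0 in control cells, FGFBP3 was at 0.334 FPKM in knockdown cells and 0.327 FPKM in control cells, and the median of that list was 0. S100A13, which takes part in the export of FGF1, was abundant in both libraries, at 1274 FPKM in knockdown cells and 1087 FPKM in control cells, and the list of export factors had a median of 0.20. Among splicing regulators of receptor isoforms, with a median of 0.40, PTBP1 was at 43.3 FPKM in knockdown cells and 33.9 FPKM in control cells and RBFOX2 at 7.43 FPKM in knockdown cells and 3.44 FPKM in control cells. The epithelial splicing factors of the list, named after their values were seen, were ESRP2, at 4.28 FPKM in knockdown cells and 2.83 FPKM in control cells, 1.51-fold higher (1.16 to 2.00), and ESRP1, at 0.0676 FPKM in knockdown cells and 0 in control cells.

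**Figure D4:**
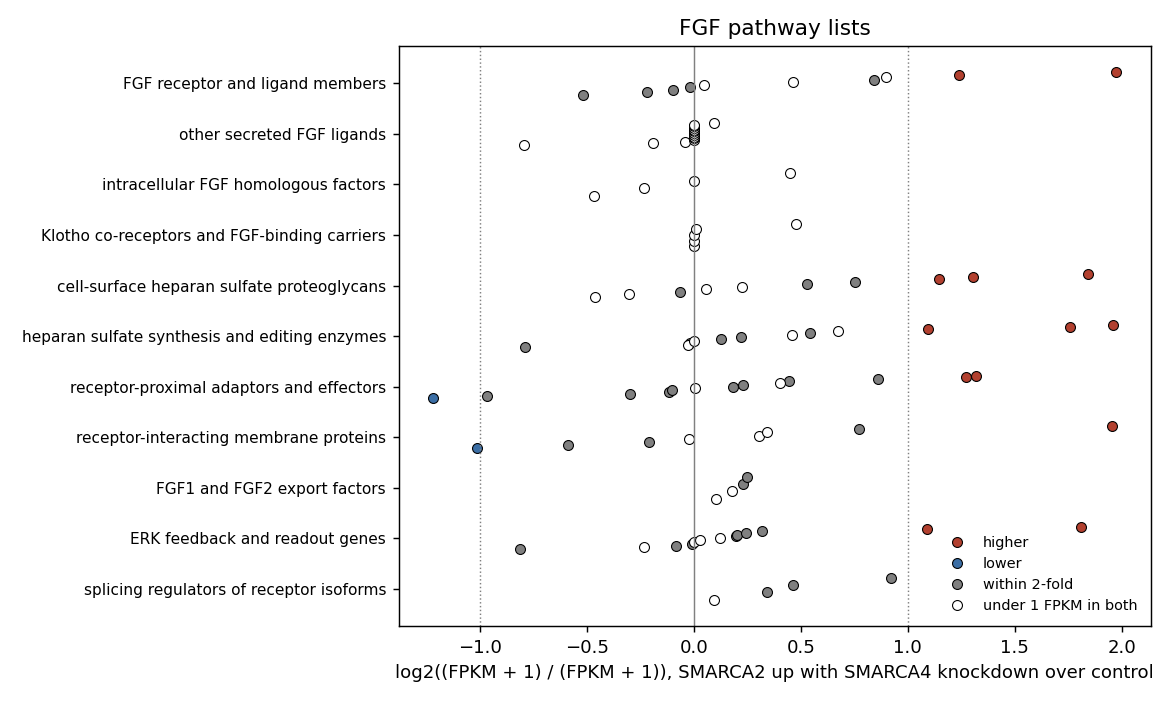
Log2((FPKM + 1) / (FPKM + 1)), knockdown over control, for each gene of the member list and the 10 pathway lists, 1 point per gene, coloured by whether it passed the rule of size; dotted lines mark 2-fold. The 11 higher pathway genes lie in the rows of proteoglycans, heparan sulfate enzymes, adaptors, membrane proteins and ERK feedback genes, and the 2 lower ones, SHC1 and FLRT3, in those of adaptors and membrane proteins.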

How the data were processed

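RNA was measured in 2 cultures of OVSAHO cells, grouped by their genotype labels. Per the labels' protocols, SMART-Seq HT cDNA, which is amplified by PCR and carries no strand mark, went into Nextera XT libraries. Each library came with a table of FPKM deposited by the authors, per the file headers. The submitters' processing notes list Cuffdiff 2.2.1, TopHat2 2.1.1, Bowtie2 2.2.8, SAMtools 0.1.18 and hg19; annotation and scaling were not given in the sources used here. FPKM were used as deposited, with a pseudocount of 1. Low values move in steps of whole fragments. Of 1129 genes under 0.3 FPKM in both libraries, 78.7% had ratios matching 1 to 8 whole fragments within 0.002 on the log2 scale. That match gave only the relative value of 1 fragment, 1.02, knockdown over control. The depth of each library and a shortening of 200 bases were chosen together in a separate step. It used genes with a single RefSeq-matched transcript and took the pair that put most values at 1 fragment, within a window of 2%. Fragments per gene used the median length of RefSeq-matched GENCODE 29 transcripts less 200 bases, and intervals are 95% Clopper-Pearson for folds and Poisson for levels. Lengths covered 93.1% of genes at 1 FPKM. Alternatives were other pseudocounts, scalings, filters and fold thresholds, and removal of cubic trends on length, GC and level (residuals plus the mean ratio). Named were all members, up to 4 genes past the rule per list and direction, otherwise the 2 most abundant, overlapping neighbours, and a few others chosen after their values were seen. One gene named by this rule is not reported here. The members and lists were chosen with earlier results of these data known. Scripts ran in Python 3.11.15 with SciPy 1.17.1 and were tested on simulated data.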

Additional observations from a re-analysis of the deposited data

How the results depend on the processing

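FGFR1 and FGF18 were the higher members, and no member was lower, under 7 of the 11 settings tried. The changed level filters among these could not alter the calls. A log2 ratio of 1 already requires 1 FPKM, and FGFR1 and FGF18 pass each filter by their levels. With a pseudocount of 0.1 FPKM or a threshold of 1.5-fold FGF2 joined them (3 members), with a pseudocount of 5 FPKM FGF18 alone remained (1 member), and at 4-fold there was none (0 members). The log2 ratio lay between 0.86 and 1.38 for FGFR1 and between 1.41 and 2.18 for FGF18. Of the pathway genes, 5 were higher with a pseudocount of 5 FPKM and 0 at 4-fold, against 11 as reported. With a pseudocount of 0.1 FPKM or at 1.5-fold, 15 were higher. The 2 lower pathway genes became 1 with a pseudocount of 5 FPKM, with equal FPKM sums, after centring and with a minimum of 5 FPKM. They became 3 with a pseudocount of 0.1 FPKM or the trends removed, 6 at 1.5-fold and 0 at 4-fold. RBFOX2 was also called higher with a pseudocount of 0.1 FPKM, at 1.5-fold, with equal FPKM sums, after centring and with the trends removed. FRS3 was called lower with a pseudocount of 0.1 FPKM, at 1.5-fold and with the trends removed. By estimated fragments, which are not per length, FGFR1 took 66.2% of the kinase receptors, FGFR2 16.3% and FGFR4 14.6% in knockdown cells, and FGFR1 took 42.0% and FGFR4 28.9% in control cells, so that FGFR1 led in both. With FGFRL1 counted, FGFR1, FGFR2 and FGFR4 took 47.6%, 16.1% and 18.9% in knockdown cells and 24.4%, 22.1% and 30.4% in control cells. The called members, picked by the size of their ratio, did not change sign. Of the other members, FGFR2 (-0.079 to 0.099) and FGFRL1 (-0.25 to 0.016) did. No paired analysis was possible because there was 1 library per group. Depth limits FGF1, FGF2, FGF9 and FGFR3 most, each with fewer than 10 fragments in control cells.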
